A study of Arabidopsis thaliana with 6 samples.

Results

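The regions described here are the places between genes where 2 of 3 deposited peak lists of PIF4-Myc chromatin immunoprecipitation had a peak and list 1 had none. Peaks on chromosomes 1 to 5 of the 3 lists were merged wherever they shared at least 1 bp. A merged region was kept when it held a peak of list 2 and of list 3 and no peak of list 1. It was then kept only when its position, the summit of the list 3 peak with most tags, lay outside every protein-coding gene but within 2 kb of an end of one. This gave 888 regions out of 15015 merged regions. They made up 54.6% of the 1626 regions that lists 2 and 3 shared without list 1, while 527 of those (32.4%) had their position inside a gene and 211 (13%) lay more than 2 kb from any gene. The members were thus chosen by the presence of peaks in lists 2 and 3 and their absence in list 1, with the summit and tags of list 3 setting the position, so folds, tags and scores are given as a description.

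PIF4-Myc seedlings overexpressed Myc-epitope-tagged PIF4 (design label P1M), the controls were wild-type (WT), and both were immunoprecipitated with an anti-Myc antibody from whole seedlings. Seeds of both groups received 3 h of white light at 21 °C to induce germination, and the seedlings were harvested after 3 days in darkness. Each group had 3 libraries, and each library pooled 4 ChIP assays of 2 biological replicates. Each deposited list holds the peaks of 1 PIF4-Myc library over a WT library, so the WT samples entered only as the control inside the peak caller. The promoter that drives the transgene and the number of lines are not given in the sources used here. Myc-tagged PIF4 in an overexpressing line need not occupy the same places as PIF4 at its own level.

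PIF4 is a basic helix-loop-helix transcription factor that accumulates in darkness and is degraded after photoactivated phytochrome binds to it. It binds E-box type DNA elements, above all the G-box, and promotes elongation of the hypocotyl in dark, shaded or warm conditions. Genes of auxin, ethylene and gibberellin biology, homeodomain-leucine zipper factors and cell wall enzymes are well known around the PIF pathway.

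Lists 2 and 3 are not treated as separate measurements here, since their peaks often shared edges to the base. The list 2 and list 3 peaks began at the same base in 504 of 888 regions (56.8%) and ended at the same base in 486 (54.7%). Other regions shared start bases too. The share was 48.4% in the in-gene regions of lists 2 and 3 only and 61.6% in those over 2 kb from genes. It was 41.9% in intergenic regions within 2 kb of genes that all 3 lists shared. Both edges were identical in 281 regions (31.6%) and neither was in 179 (20.2%). The summit was the same base in 497 regions (56.0%) and lay within 100 bp in 838 (94.4%), although 11 regions had summits over 500 bp apart.

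In the 281 regions with identical edges, where both lists counted tags (reads assigned to the peak) in the same interval, list 3 had fewer tags than list 2 in 281 of 281. The ratio of list 3 to list 2 tags had a median of 0.854 and ran from 0.700 to 0.965. Those regions held 44247 tags in list 3 and 52008 in list 2, although the file headers give 12292381 treatment tags for list 3 and 9385807 for list 2. The split of tags between the lists varied less from region to region than independent counting would give. Its chi-square divided by its degrees of freedom was 0.201 (56.2 on 280 degrees of freedom), and 0 of 281 regions lay more than 2 binomial SD from the common split. The lists therefore differed by less than the sampling noise in these 281 regions, which were picked by their identical edges. Over all 888 regions, whose intervals often differ between the lists, the same value was 2.36, and 106 regions lay beyond 2 SD. Lists 2 and 3 are counted as 1 sample, and the cause was not tested. No replicate error can be given for any region, and the values of lists 2 and 3 are printed side by side as 2 readings. The WT control named in the header also differs, being the same for lists 1 and 2 and another for list 3.

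**Figure D1:**
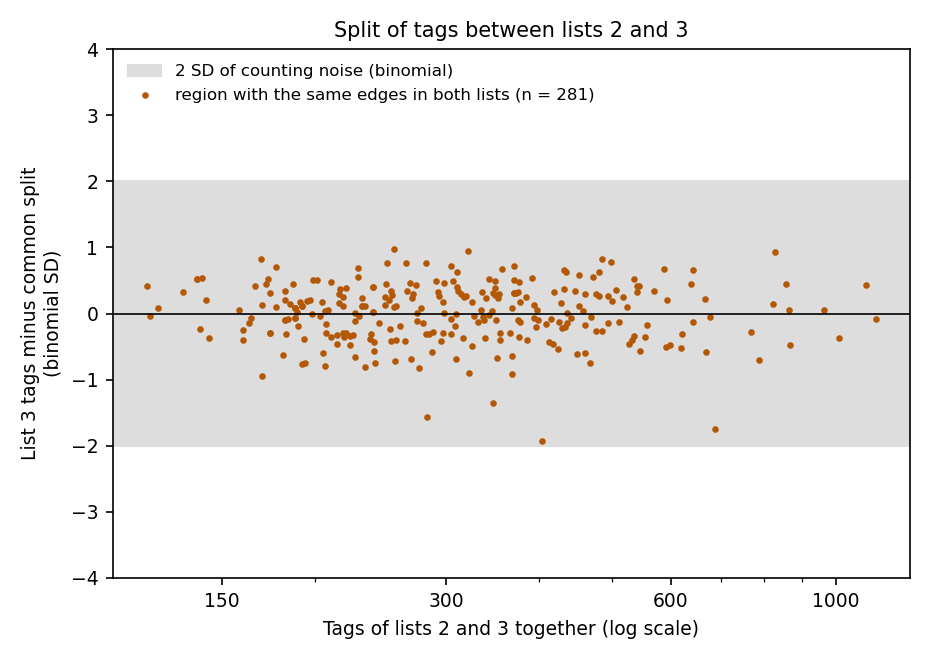
Each point is 1 of the 281 intergenic regions whose list 2 and list 3 peaks have identical edges, with the tags of both lists together on the x axis (log scale) and the deviation of its list 3 tags from the common split on the y axis, in SD of binomial counting. All 281 points lie inside the grey band of 2 SD.

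The fold enrichment of the 888 regions, a ratio that the authors' peak caller gives for the summit over its expected level, had a median of 2.81 in list 2, with a range of 1.48 to 8.58. In list 3 the median was 4.57 and the range 2.46 to 14.56. The list 3 fold was above the list 2 fold in 888 of 888 regions, by a median ratio of 1.61 (range 1.10 to 3.0). This was not particular to the 888. It held in 527 of 527 in-gene regions of lists 2 and 3 only and in 210 of 211 over 2 kb from genes. It also held in 452 of 454 intergenic regions within 2 kb of genes that all 3 lists shared. Regions high in one list were high in the other: the Spearman coefficient of the folds was 0.900 across the 888 regions, whose points share libraries and, in many cases, edges. In the 179 regions that share neither edge the coefficient was 0.877, and the median folds were 2.57 in list 2 and 4.31 in list 3.

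The regions held 62 to 1187 tags in list 2 (median 178) and 55 to 1035 in list 3 (median 147). Median peak widths were 814 bp in list 2 and 793 bp in list 3. A fold of at least 5 was reached by 52 regions (5.86%) in list 2 and by 346 (39.0%) in list 3. Of all peaks, 170 of 4093 in list 2 and 892 of 2931 in list 3 reached it. A fold of at least 10 was reached by 0 regions in list 2 and by 22 in list 3, beside 10 and 77 of all peaks. None of the regions headed its list: the best ranks by fold were 21 of 4093 peaks in list 2 and 14 of 2931 in list 3, where the highest folds of any peak were 14.46 and 21.78. Above the median rank of the list stood 620 regions (69.8%) in list 2 and 549 (61.8%) in list 3.

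**Figure D2:**
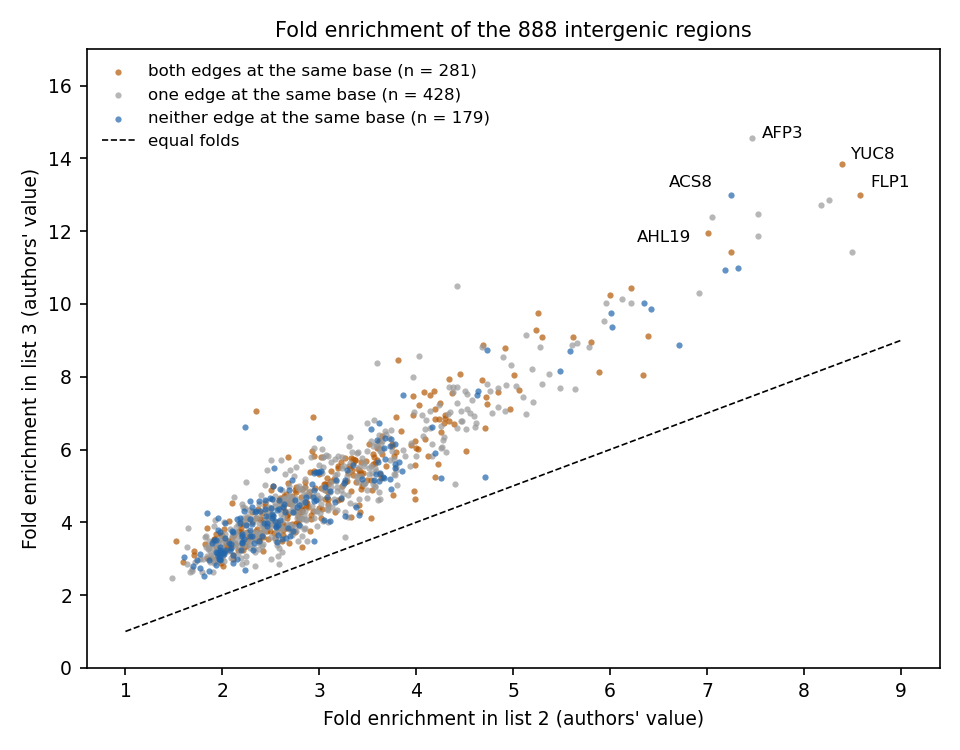
Each point is 1 of the 888 intergenic regions, with its fold enrichment in list 2 on the x axis and in list 3 on the y axis (authors' values), coloured by how many peak edges the lists share. All 888 points lie above the dashed line of equal folds, and AFP3 (14.56 in list 3) and YUC8 (13.86) stand highest.

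The false discovery rate given by the peak caller varied widely. Its median over the regions was 43.5% in list 2 and 55.9% in list 3. At a rate of 1% or less there were 19 of the regions in list 2 and 0 in list 3. All of list 2 held 85 such peaks, of 4093, and all of list 3 held only 2, of 2931. At 10% or less the counts were 78 in list 2 and 2 in list 3, beside 324 and 8 of all peaks. At 50% or less they were 489 (55.1%) and 399 (44.9%), beside 1509 and 1110 of all peaks.

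The region with the highest list 3 fold lay beside AFP3, which encodes a member of the ABI5-binding protein family of abscisic acid signalling. It ran from 11383763 to 11384658 on chromosome 3 (TAIR10), with its position 9 bp from the gene, and had a fold of 7.46 with 331 tags in list 2 and 14.56 with 305 tags in list 3. Its false discovery rate of 7.14% in list 3 was the lowest of all 888 regions in that list. The next was 505 bp from YUC8, a flavin monooxygenase of auxin biosynthesis, at 14191723 to 14192458 on chromosome 4. Its folds were 8.39 in list 2 and 13.86 in list 3, from 243 and 209 tags in an interval with identical edges. Nearer to YUC8, at 106 bp, a second region had only 2.14 and 3.43.

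Genes of ethylene biology, ACS8 and EIN4, lay near 2 of the 12 regions highest in list 3. The region 1076 bp from ACS8, whose product makes the ethylene precursor ACC, lay at 17754511 to 17755490 on chromosome 4, with a fold of 7.25 in list 2 and 12.99 in list 3. It had 378 tags in list 2 and 322 in list 3, and the highest p score of all 888 regions in each list, 1686.75 in list 2 and 1043.07 in list 3 (the peak caller's scaled negative log10 of the p-value). A region at 1233268 to 1233964 on chromosome 3 lay 1146 bp from AHL19, an AT-hook protein gene, and 1612 bp from EIN4, which encodes an ethylene receptor. Its folds were 7.01 in list 2 and 11.94 in list 3, with 226 and 205 tags.

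The rest of the highest 12 lay beside genes of varied roles. The region nearest to FLP1 had 8.58 in list 2, the highest list 2 fold of all 888, and 12.99 in list 3 (15231022 to 15231804 on chromosome 4, 318 and 275 tags). The DVL21 region, beside a gene of the DEVIL family of small peptides, had 8.26 in list 2 and 12.87 in list 3 (8500266 to 8500970 on chromosome 3, 218 and 194 tags). The region at 16775079 to 16776727 on chromosome 5 had 8.18 and 12.71 with 455 and 386 tags. It lay 675 bp from AT5G41908 and also within 2 kb of MED10A, a Mediator subunit gene.

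LYK4, a LysM receptor-like kinase of chitin perception, had a region at 322 bp (10119320 to 10119999 on chromosome 2) with 7.53 in list 2 and 12.48 in list 3. ATTPS6, of the trehalose-6-phosphate synthase family, shared its region with HPR, a hydroxypyruvate reductase of photorespiration: 7.53 in list 2 and 11.87 in list 3, with 391 and 253 tags (25496389 to 25497788 on chromosome 1). The last 3 lay near AT4G18670 (7.05 and 12.4), AT4G36860 (8.49 and 11.44) and AT5G05965 (7.25 and 11.42). Of the 12 regions, 5 were on chromosome 4, which held 132 of the 888 (14.9%). The lowest list 3 folds belonged to AT5G58160 (1.48 in list 2 and 2.46 in list 3), ESP1 (1.81 and 2.52) and AT1G32160 (1.67 and 2.62).

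The positions lay close to genes, about as close as intergenic sequence itself. The distance to the nearest gene had a median of 556.5 bp (1 to 1998 bp), and 412 regions (46.4%) lay within 500 bp, against 47.5% of all positions that are outside genes and within 2 kb of one. That order is not stable, since the share was 51.4% among regions that share neither edge and 47.7% to 49.0% when each list was left out in turn. Inside that stretch the shares parted: 243 regions (27.4%) lay within 200 bp, against 23.3% of positions, and 169 (19.0%) lay at 201 to 500 bp, against 24.2%. Beyond 500 bp the shares of regions and of positions were within 1 percentage point in each 500 bp step. The annotation used gives no strand, so upstream and downstream of a gene cannot be told apart here.

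**Figure D3:**
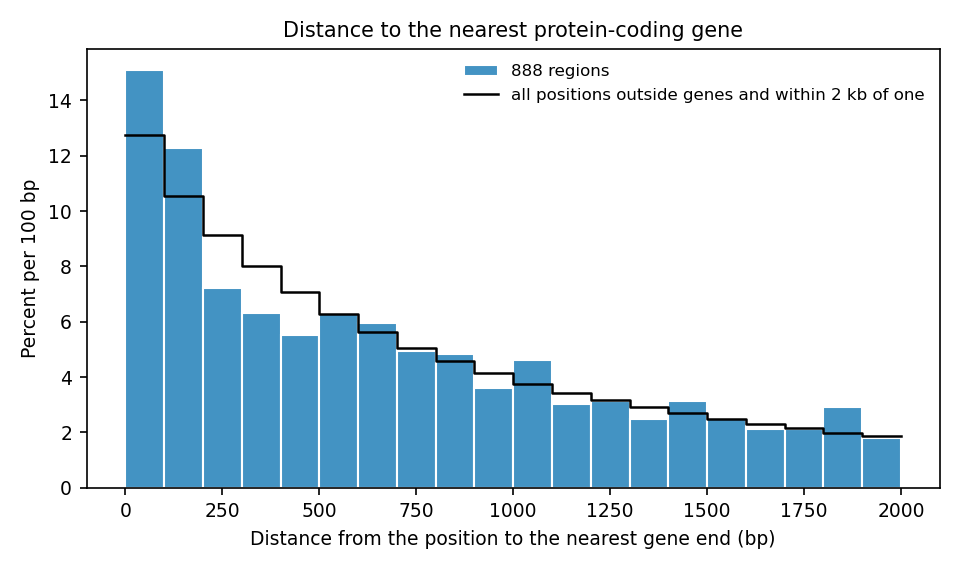
Bars give the percent of the 888 regions in each 100 bp of distance from the position to the nearest protein-coding gene end, and the line gives the same for all positions outside genes and within 2 kb of one. The bars stand above the line in the first 200 bp (27.4% against 23.3%) and below it from 201 to 500 bp (19.0% against 24.2%).

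Regions far from genes had somewhat higher folds. Within 200 bp the median fold was 2.61 in list 2 and 4.32 in list 3, and at 1501 to 2000 bp it was 2.98 and 4.89. The Spearman coefficient of distance with fold was 0.171 in list 2 and 0.172 in list 3 over the 888 regions, a weak relation. Genes stood within 2 kb on both sides of 386 regions (43.5%, against 46.4% of positions), whose median list 3 fold was 4.34, and on one side of 502, with 4.66. The chromosomes held 132 to 247 regions each, with median list 3 folds of 4.48 to 4.65.

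Intergenic means outside protein-coding genes, and 70 of the regions (7.88%) had their position inside an annotated noncoding RNA or pseudogene, against 9.25% of positions. For long noncoding RNAs alone the count was 50 (5.63%), against 2.17% of positions, with median folds of 2.8 in list 2 and 4.675 in list 3. The regions of WRKY13 and RGA1 described below were among them, in AT4G09865 and AT2G04015.

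Protein-coding genes with a region within 2 kb numbered 1334 of 27444 (4.86%), and 858 (3.13%) were the nearest gene of one. Of the 1334 genes, 1277 had 1 region, 55 had 2 and 2 had 3. NGA3, a B3-domain transcription factor of leaf and gynoecium development, had 3, with list 3 folds of 3.61 to 5.82, and AT1G64385 had 3 with 4.04 to 4.5.

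Genes were counted in 24 lists, which cover growth and hormone pathways, large transcription factor families and broadly expressed comparison genes. Together they held 770 genes, of which 106 (13.8%) had a region within 2 kb, beside the 4.86% of all protein-coding genes. Counted as the nearest gene alone, 86 of the 770 had a region, beside 3.13% of all protein-coding genes. Among the genes named below, the regions of IAA11, HB18, PKS2, RPN10, EIN4, BRI1, NAC048, AT4G34790 and BEE3 lay nearer to another gene. The lists overlap in 14 genes, neighbouring genes of a family can share a region, and no test was made of the lists. Intervals on their shares are exact 95% binomial intervals and cover counting error only. The folds below are given without their false discovery rates, which differ widely between genes. ACS8 had 0.0% in list 2 and 7.69% in list 3, but MYB94 had 86.9% and 99.86%. HB18 had 86.06% and 95.09%, GID1B 84.12% and 83.13%, and GI 76.34% and 93.83%.

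**Figure D4:**
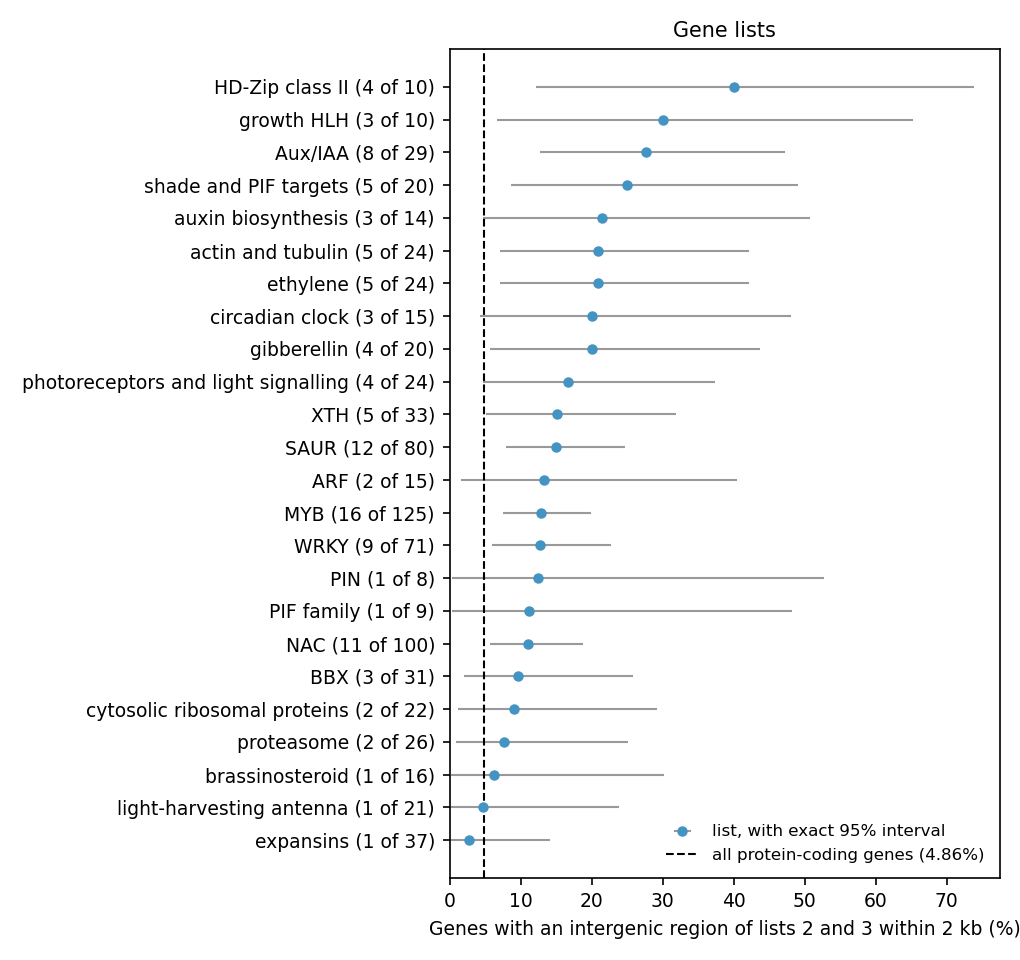
Points give, for each of 24 gene lists, the percent of its genes with an intergenic region of lists 2 and 3 within 2 kb, with exact 95% binomial intervals as lines; the dashed line is the 4.86% of all protein-coding genes. HD-Zip class II (4 of 10) is drawn at the top and the expansins (1 of 37) at the bottom, an order that changes with the processing, and the actin and tubulin genes (5 of 24) stand beside ethylene (5 of 24).

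Of 20 shade-responsive and PIF target genes, 5 had a region (25%, interval 8.66 to 49.1). YUC8 and ACS8 led, followed by XTH15, a xyloglucan-modifying cell wall enzyme gene, whose region 1755 bp away had 7.32 in list 2 and 11.0 in list 3. It had 419 tags in list 2 and 535 in list 3, whereas 833 of the 888 regions had fewer tags in list 3. Tags are counted over each list's own peak, and the XTH15 peaks differ in extent. When peaks had to overlap reciprocally by 50%, the shade and xyloglucan counts each fell to 4, with XTH15 lost from both. PAR2, a helix-loop-helix inhibitor of the shade response, had 3.59 and 6.04, and HAT1, a homeodomain-leucine zipper gene, had 4.02 and 6.02. When list 1 was not asked for absence, 14 of the 20 had an intergenic region, so 5 is the count outside list 1 only.

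Homeodomain-leucine zipper class II factors, many of them induced by shade light, had a region in 4 of 10 cases (40%, interval 12.2 to 73.8). The count was 2 with a 1 kb limit or with no list 1 peak within 500 bp, 0 among regions that share neither edge, and 6 without list 1. HAT22 had 2 regions, one with 6.0 in list 2 and 10.25 in list 3 and another with 3.12 and 4.96. HAT1 followed, then HAT9 with 3.19 and 5.48, and HB18 had 2.02 and 3.56. In the PIF family 1 of 9 genes had a region, and 3 without list 1 and 0 with no list 1 peak within 500 bp. It was PIF4 itself, the immunoprecipitated factor's own gene, at 367 bp (17885476 to 17886673 on chromosome 2) with 2.0 in list 2 and 3.64 in list 3, both below the median of the 888.

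Light signalling genes had a region in 4 of 24 cases (16.7%). PHOT1, a blue light receptor of phototropism, had 3.68 in list 2 and 6.31 in list 3. SPA1, a partner of the COP1 ubiquitin ligase, had 3.06 and 4.98, and PKS2, a phytochrome kinase substrate, had 2.47 and 4.15. Among small helix-loop-helix growth regulators, 3 of 10 had a region: BS1 (also PRE3) with 4.51 and 6.55, PAR2, and PRE5 with 2.38 and 3.61. The clock had 3 of 15, namely the pseudo-response regulators PRR9 (3.97 and 6.94) and PRR5 (2.41 and 3.74), and GI (3.29 and 5.14). B-box zinc finger genes had 3 of 31 (9.68%): BBX21 (3.27 and 4.18), COL9 (2.91 and 4.09) and COL4 (2.63 and 3.92).

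Auxin genes were counted in several lists. In auxin biosynthesis 3 of 14 genes had a region (21.4%, interval 4.66 to 50.8), all of them YUCCA enzymes: YUC8, YUC9 with 5.78 in list 2 and 8.82 in list 3, and YUC5 with 3.54 and 5.36. The Aux/IAA repressors had 8 of 29 (27.6%, interval 12.7 to 47.2). IAA2 had the highest of these, 4.5 in list 2 and 7.61 in list 3, at 737 bp. IAA11 had 2.7 and 5.44, and SHY2 (IAA3) had 3.78 and 5.29 at 27 bp.

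Auxin response factors, which the Aux/IAA proteins repress, had 2 of 15 (13.3%, interval 1.66 to 40.5), ARF10 (3.16 and 5.75) and ARF6 (2.68 and 5.07). The efflux carrier PIN3 was the 1 of 8 PIN genes (12.5%, interval 0.316 to 52.7), with 3.78 in list 2 and 6.16 in list 3. The SAUR genes, rapidly auxin-induced growth genes, had 12 of 80 (15%, interval 7.998 to 24.7), with list 3 folds of 3.09 to 6.02. Their highest was AT4G09530 (SAUR17) with 3.03 and 6.02, then AT1G19840 (SAUR53) with 2.89 and 4.74, and AT4G34790 and AT4G34800 shared a region with 2.55 and 3.86.

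The ethylene list had 5 of 24 (20.8%, interval 7.13 to 42.2), and its folds were high throughout, 6.13 to 12.99 in list 3 against the median of 4.57 over the 888 regions. Apart from ACS8 and EIN4, the ACC synthase genes ACS9 (6.01 in list 2 and 9.74 in list 3, at 1656 bp) and ACS5 (5.13 and 9.16, at 1616 bp) had a region, as did the ACC oxidase gene AT1G77330 (ACO5), with 3.95 and 6.13. Each ACC synthase region lay over 1 kb from its gene.

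Gibberellin genes had 4 of 20 (20%). RGA1, a DELLA repressor, had 4.06 in list 2 and 6.96 in list 3, the receptor GID1B had 3.39 and 5.21, and GA2OX6, a gibberellin-inactivating oxidase, had 2.1 and 3.62. The brassinosteroid list had 1 of 16, the receptor kinase gene BRI1, with 3.18 in list 2 and 4.33 in list 3, and its region lay nearer to PLS, at 84 bp.

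Cell wall genes were counted in 2 lists. Xyloglucan endotransglucosylase/hydrolases had 5 of 33 (15.2%, interval 5.11 to 31.9), with XTH15 above XTH7 (2.76 and 5.51) and XTH16 (2.5 and 4.39). Expansins, which loosen the wall, had 1 of 37 (2.70%), EXPA1, with 2.53 and 3.71. In the better-ranked 50% of each list there were 3 of each family, and without list 1 there were 6 xyloglucan genes and 5 expansins.

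The large transcription factor families had shares of 11% to 12.8%. WRKY factors had 9 of 71, led by WRKY13 (4.93 in list 2 and 7.78 in list 3), ABO3, also WRKY63 (4.76 and 7.61), and WRKY6 (2.68 and 5.8). NAC factors had 11 of 100, led by NAC048 and NAC049, which shared a region with 3.51 and 6.14, and by VND1, a regulator of xylem vessel formation (3.31 and 6.11). MYB factors had 16 of 125, led by MYB30 (3.07 and 5.84), MYB105 (2.94 and 5.35) and MYB94 (2.88 and 4.72), and none of these 16 exceeded 5.84 in list 3.

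Lists of broadly expressed genes served for comparison. Actin and tubulin genes had 5 of 24 (20.8%), the same count of the same number as ethylene, but lower folds of 3.63 to 5.11 in list 3: ACT7 had 3.12 in list 2 and 5.11 in list 3, TUB6 3.62 and 4.83, and TUB8 2.58 and 4.58. With peaks at a false discovery rate of 50% or less, the counts were 2 for actin and tubulin and 4 for ethylene. The proteasome had 2 of 26, RPN10 (2.41 and 3.61) and PBE1 (1.93 and 2.82). The RPN10 region, 1352 bp from RPN10, lay nearer to MYB4, at 596 bp, and is counted in the MYB list too. Cytosolic ribosomal proteins had 2 of 22, RPS5A (2.46 and 3.76) and RPL5B (1.86 and 3.28). The light-harvesting antenna had 1 of 21 (4.76%), LHCB2.3, with 2.03 and 3.68. A share above 4.86% was thus not limited to growth and hormone lists.

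Single lists of peaks moved several of these counts by over 1.5 times. Without list 1, beside the shade, PIF and expansin counts given above, the count was 8 for ethylene, 7 for light signalling, 6 for the B-box genes, 5 for the growth helix-loop-helix genes, 4 for the auxin response factors, and 2 each for brassinosteroid and the antenna. Without list 2 it was 2 each for the PIF family, PIN, brassinosteroid and the antenna. Without list 3 it was 14 for WRKY, 4 for the ribosomal proteins and 2 each for brassinosteroid and the expansins.

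Some regions lay near one another. With neighbouring positions at most 10 kb apart, 228 regions (25.7%) fell into 104 chains of 2 or more, and 89 of the chains had 2 regions. The same count was not made for other regions or positions, so whether this exceeds ordinary spacing is not known. The longest had 5 regions each, from SEH1H to AT1G64385 on chromosome 1 (list 3 folds 4.04 to 6.96) and from AT5G02420 to AT5G02450 on chromosome 5 (4.57 to 7.11).

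The stretch from SQE3 to XTH7 on chromosome 4, chosen after its values were seen, held 5 of the regions. Beside SQE3, a squalene epoxidase gene of sterol synthesis, a region at 17748359 to 17749755 had 6.92 in list 2 and 10.3 in list 3. The ACS8 region followed, then both HAT22 regions and the XTH7 region at 17772987 to 17774552. List 1 peaks in this stretch had folds of 0.93 to 1.08 and overlapped none of the 5. Such folds were usual for list 1, whose median fold over all its peaks was 0.99.

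**Figure D5:**
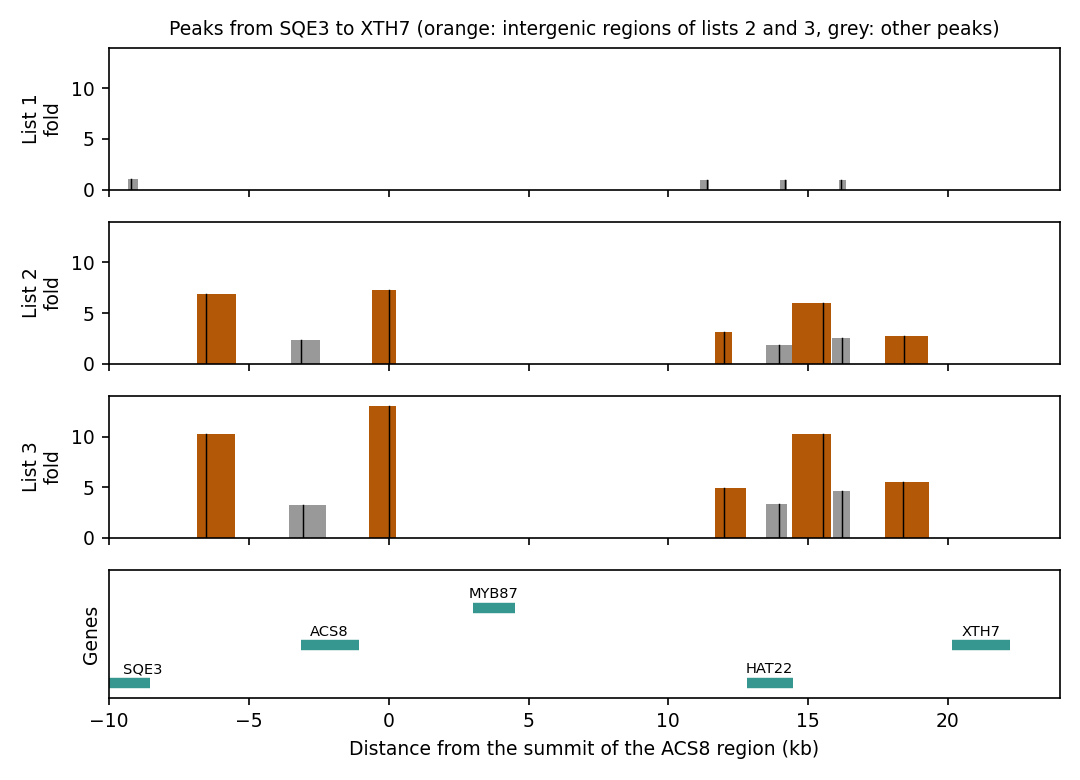
Bars give the fold enrichment (authors' values) of each peak in lists 1, 2 and 3, with its summit as a black line, by distance in kb from the summit of the ACS8 region, and the lowest panel shows the genes. The 5 orange regions have peaks in lists 2 and 3, up to 12.99 at ACS8. The list 1 peaks nearby (folds 0.93 to 1.08, against a median of 0.99 in all of list 1) lie beside them.

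Beside the other regions, the 888 fell between the groups. Their median folds of 2.81 in list 2 and 4.57 in list 3 stood above those of the 527 in-gene regions (2.42 and 3.88) and below those of the 211 regions over 2 kb from genes (3.08 and 4.99). Intergenic regions within 2 kb of genes that all 3 lists shared numbered 454, with medians of 3.095 and 4.79. They were wider, at 1195 bp in list 2 against 814 bp in the 888, and held more tags, 285.5 against 178. Because the lists define these groups, the differences were not tested.

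Some genes beside an intergenic region also lay beside a region of another kind, at shares above those of all genes. Of the 1334 genes beside an intergenic region, 91 (6.82%) also lay beside an in-gene region of lists 2 and 3 only, against 3.29% of all genes. An intergenic region found in all 3 lists lay beside 50 of them (3.75%), against 2.66% of all genes.

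The absence of a list 1 peak was a matter of distance as well as of the list. The nearest list 1 peak lay a median of 2643.5 bp away, within 500 bp of 103 regions (11.6%) and within 5 kb of 647 (72.9%). List 1 held 12177 peaks, and the distance was not measured for other positions, so these counts show no particular closeness. Closest were AT3G62630, where a list 1 peak with a fold of 1.28 lay 2 bp from a region with 2.61 in list 2 and 3.48 in list 3, and AT2G05294, with a list 1 fold of 1.22 at 6 bp and 3.09 and 4.84. Just outside the rule, list 1 overlapped the AT1G14580 region by 23 bp (2.27 in list 2 and 3.25 in list 3) and the BGLU9 region by 30 bp (2.7 and 3.65). At the distance limit, the region of AT3G48450 (2.56 and 3.45) lay inside at 1998 bp, and those of AT1G06070 (2.44 and 3.89, at 2003 bp) and AT1G62480 (5.86 and 10.51, at 2007 bp) lay outside.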

How the data were processed

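All 3 peak lists of PIF4-Myc ChIP-seq, called per library against a WT library, were used. Reads were handled with CASAVA 1.8.0, Bowtie 0.12.7 and MACS 1.4.1 on TAIR10, per the submitters' processing notes; lists 1 and 3 name MACS 1.4.0rc2 and list 2 names MACS 1.4.1, per the file headers, at a p cutoff of 1e-05. Tags per peak are counts deposited by the authors in lists 2 and 3; all list 1 tags were multiples of 5 and are treated as a score. The p score is a scaled −log10 of the authors' p-value, the fold is the authors' ratio, and the false discovery rate is the authors' percent. Treatment tags numbered 12766185, 9385807 and 12292381 for lists 1, 2 and 3, per the file headers; list 1's filtered total of 112342435 exceeds its total and was not used.

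Genes came from the RefSeq table of TAIR10.1 (27444 protein-coding), while peaks are on TAIR10; 67.0% of 2411 positions lay outside genes unshifted and 43.3% and 44.8% after shifts of 2000 bp either way. Named regions are the 12 highest by list 3 fold, up to 3 genes per list, the 2 nearest each limit of the rule and the 3 lowest (1 region at a limit is not reported here); HB18, ACS5, AT1G77330, NGA3, AT1G64385 and the genes of the chains were chosen after their values were seen. Members and lists were chosen with earlier results of these data known. Python 3.11.15, pandas 2.3.3 and scipy 1.17.1 were used, and the rule was run on simulated lists, recovering 165 of 165 planted regions. The planted sites stood far apart with peaks around a common position, so merging of neighbouring or barely overlapping peaks was not tested. The WT libraries and DNA sequences were not analysed here.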

Additional observations from a re-analysis of the deposited data

How the results depend on the processing

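Peaks at a false discovery rate of 50% or less left 370 regions, 561 genes, 46 list genes and median folds of 3.59 in list 2 and 5.79 in list 3. The better-ranked 50% of each list gave medians of 3.37 and 5.4. Regions that share neither edge, an alternative added after seeing the data, numbered 179, with 285 genes, 21 list genes and medians of 2.57 and 4.31. A 1 kb limit gave 817 genes and a list 3 median of 4.435, a 5 kb limit 2677 genes and 171 list genes, and the nearest gene alone 858 genes. Leaving out each list gave 1101 to 1343 regions, 1654 to 2016 genes, 123 to 157 list genes, and medians of 2.62 to 2.91 in list 2 and 4.34 to 4.63 in list 3; the highest counts, 1343 and 2016, came without list 1. The share of regions within 500 bp of a gene, 46.4% against 47.5% of positions, was above 47.5% among regions sharing neither edge (51.4%) and on leaving out each list (47.7% to 49.0%). The cause was not tested, apart from what follows by construction. Fewer peaks in lists 2 and 3 or a narrower limit leave fewer regions. Leaving out a list drops a condition of the rule, so more regions pass. The better-ranked 50% also removed list 1 peaks, which can let regions in, and the expansin count there was 3 against 1. Depth per position was unknown, and counts of single gene lists are small and move with the list of peaks left out. No paired analysis was possible because PIF4-Myc and WT libraries are compared only inside the authors' peak caller. The share upstream of genes was not run, since the annotation gives no strand, nor were motif shares.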

Other observations

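Further families, listed after their values were seen, are given as values only. The DVL and RTFL genes, which encode small peptides that restrict cell proliferation when overexpressed, had an intergenic region within 2 kb in 7 of 24 cases. RTFL17 had 2, one with 7.18 in list 2 and 10.94 in list 3 and another with 3.68 and 5.73, and RTFL18 had 3.73 and 5.72. The brassinosteroid-enhanced bHLH genes had one at 3 of 3: BEE1 with 4.29 and 6.35, BEE2 with 4.31 and 5.94, and BEE3 with 1.81 and 2.52. The BEE3 region is the ESP1 region named above, among the lowest in list 3 fold. It lay 1739 bp from BEE3 and 290 bp from ESP1, with false discovery rates of 76.85% in list 2 and 99.34% in list 3.

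Other homeodomain-leucine zipper classes had 2 of 17 in class I, HB16 (6.35 in list 2 and 10.03 in list 3) and HB-3 (3.59 and 5.7), and 1 of 5 in class III, PHB (2.73 and 3.75). Among noncoding hosts, the highest list 3 fold was at AT5G06935 and AT5G06945, 2 long noncoding RNA genes that share a region with 6.02 in list 2 and 9.36 in list 3. A region in the noncoding gene AT4G03125 lay nearest to CBF1, a regulator of cold acclimation, with 4.14 in list 2 and 7.49 in list 3.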
